A study of Homo sapiens with 35 samples.

Results

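Rarely contacted bins of the genome, those that met the nuclear lamina in 1, 2 or 3 of 29 single cells, are described here. The cells are KBM7, a human myeloid leukaemia line, of clone 5-5, labelled diploid (2N). All carry lamin B1 fused to Dam, all received 0.5 nM Shield1 for 15 h to induce methylation, and all belong to 1 group with no control or second condition. Cells were sorted singly from those carrying both Fucci cell-cycle colours, taking the smallest 2%. All cells come from 1 clone, and nothing in the labels says whether they came from separate cultures, so the spread between cells may include technical variation. RNA was not measured, so the labelled cell type was not checked against marker genes.

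The nuclear lamina is a mesh of lamin filaments at the inner face of the nuclear envelope. Large chromosome regions called lamina-associated domains rest against it, and they are mostly poor in genes and low in transcription, whereas gene-rich regions mostly lie further inside. In DamID, the bacterial adenine methylase Dam, joined to a lamin, marks GATC sites that come close to the lamina, so that a mark left in a cell records that a piece of DNA was near it. A cell is scored at the end of the induction, and the mark does not tell which chromosome copy touched the lamina or when.

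The measurement was OE, observed divided by expected reads, in 100-kb bins of hg19, with chromosomes 9 and 22 given as 9:22 and 22:9. An OE of at least 1 counted as a contact of that bin in that cell. Of 30376 bins, 3792 had no values. Of 26584 bins with a value in every cell, 25097 were autosomal, and none of these lay on chromosome 8. The bins in contact in 1 to 3 of the 29 cells numbered 3106, or 12.4% of the autosomal bins. Of these, 1650 were in contact in 1 cell, 822 in 2 cells and 634 in 3 cells. On either side lay 10838 bins (43.2%) in contact in no cell and 918 bins (3.66%) in contact in 4 or 5 cells. The remaining 10235 bins (40.8%) touched the lamina in 6 cells or more, which is 20% of cells or more, and are called domain bins below. Because the OE values of these 29 cells chose the bins, their OE and contact values are given as a description with no test.

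The limits separated bins with neighbouring values. In bins of 3 cells, the third highest OE had a median of 1.14 and the fourth highest a median of 0.863. In bins of 4 cells, just outside, these medians were 1.34 and 1.11. In bins of 1 cell the highest OE had a median of 1.33 and the second highest 0.693, and in bins of no cell the highest had a median of 0.332. Among the never-contacted bins, 385 (3.55%) had a highest OE of 0.9 to 1 and so lay just under the limit. At the other end, 1186 of them (10.9%) had no read in any of the 29 cells. These enter the means below with an OE of 0, and whether they could be measured was not tested.

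The 29 cells had 40279 to 258327 recovered reads, with a median of 126724. Cells 13, 15 and 17 held only 985 to 1755 reads and took no part in choosing the bins. Within a cell, the reads of a bin are divided by an expectation that differs between bins, and the relative size of that expectation is called the weight of the bin (median 316). Rarely contacted bins had a median weight of 324, against 317 in never-contacted bins with reads and 316 in domain bins. A low weight, under 159 or 50% of the autosomal median, was found in 248 of the 3106 rarely contacted bins (7.98%), in 336 never-contacted bins (3.48% of those with reads) and in 238 domain bins (2.33%). Bins of 4 or 5 cells had a share like that of the rarely contacted bins, with 76 of 918 (8.28%). In bins of low weight few reads are enough for an OE of 1.

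Rarely contacted bins lay close to domains, and the closer the more cells had touched them. The distance from a bin to the nearest domain bin, measured between bin starts, had a median of 0.400 Mb, against 1.90 Mb in never-contacted bins. The median was 0.500 Mb for bins of 1 cell, 0.3 Mb for bins of 2 cells, 0.2 Mb for bins of 3 cells and 0.100 Mb for bins of 4 or 5 cells. Within 1 Mb of a domain bin lay 2297 rarely contacted bins (74.0%), against 45.2% of all autosomal bins that were not domain bins themselves. For never-contacted bins this share was 33.0%. With domains defined by contact in 50% of cells or more, 47.6% of the rarely contacted bins lay within 1 Mb of one, against 35.8% of all autosomal bins outside such domains and 19.5% of never-contacted bins.

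Read from the side of the domains, the share of rarely contacted bins fell off with distance. They made up 46.2% of the 1612 non-domain bins right next to a domain bin, and 36.6% of the 3045 bins at more than 0.1 and up to 0.5 Mb. Their share was 21.1% at 0.5 to 1 Mb, 12.5% at 1 to 2 Mb, 10.2% at 2 to 5 Mb and 7.53% of the 2684 bins farther than 5 Mb. Directly beside a domain bin, never-contacted bins were the smaller class, with 308 bins against 745 rarely contacted ones. All classes were called from the same values, and values of neighbouring bins are not independent.

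**Figure D1:**
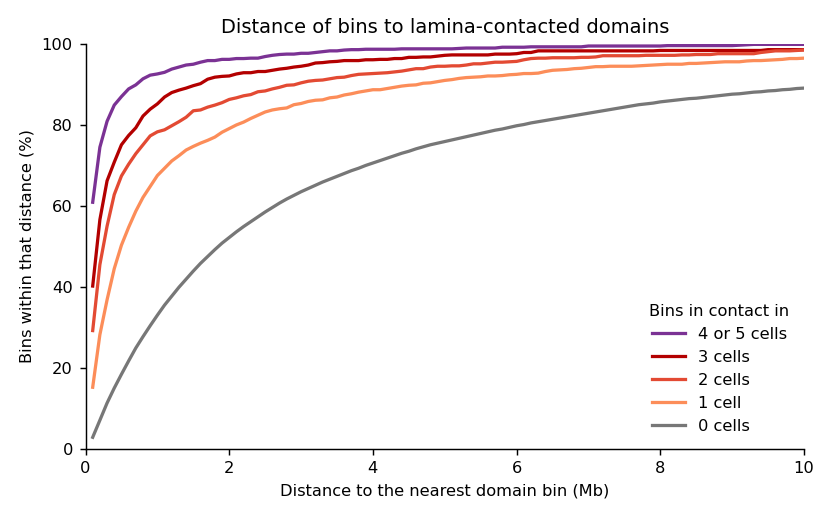
Share of autosomal bins (%) within a given distance (Mb) of the nearest domain bin, by the number of cells in contact; a domain bin was in contact in at least 6 of 29 cells. Each line lies above the one with fewer cells at 1 Mb, where the shares run from 33.0% for bins of no cell to 92.6% for bins of 4 or 5 cells.

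The 3106 bins held 5196 contacts, each a bin in a cell, and these came in 2 main forms. The first was an extension of a domain. For 1729 contacts (33.3%), the run of adjacent contacted bins in that cell also held a domain bin, and the median of these runs was 0.700 Mb long and the longest 10.2 Mb. The second was a run of rarely contacted bins only, which could still lie close to a domain. This was found for 3062 contacts (58.9%), and of 2601 such runs 2284 (87.8%) were a single bin. Runs of this kind held 18.3% of the contacts directly beside a domain bin and 65.4% of those at 0.1 to 0.5 Mb. The remaining 405 contacts (7.79%) lay in runs with bins of 4 or 5 cells.

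Extensions lay in the surroundings of domains. A contact farther from a domain bin needs a longer unbroken run to reach it, so a fall with distance is built into the definition. Directly beside a domain bin, 80.9% of the contacts lay in a run that reached it, at 0.1 to 0.5 Mb it was 26.1%, and at 0.5 to 1 Mb it was 4.58%. Farther than 2 Mb from a domain bin no contact did so. By number of cells, 20.1% of the contacts in bins of 1 cell were part of such an extension, 34.5% in bins of 2 cells and 43.6% in bins of 3 cells. Over the 29 cells, the share ran from 17.5% to 47.5% with a median of 33.2%. Seen from all 36762 runs that held a domain bin, 1238 (3.37%) included at least 1 rarely contacted bin.

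The run around a contact had a mean length of 0.520 Mb, counted per contact, and this value differed between settings. With every cell thinned to 40279 reads, which also chose the bins anew (4269 in place of 3106), it was 0.290 Mb and 22.2% of the contacts lay in a run reaching a domain bin. With runs joined across 1 bin without contact these values were 0.978 Mb and 47.4%.

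**Figure D2:**
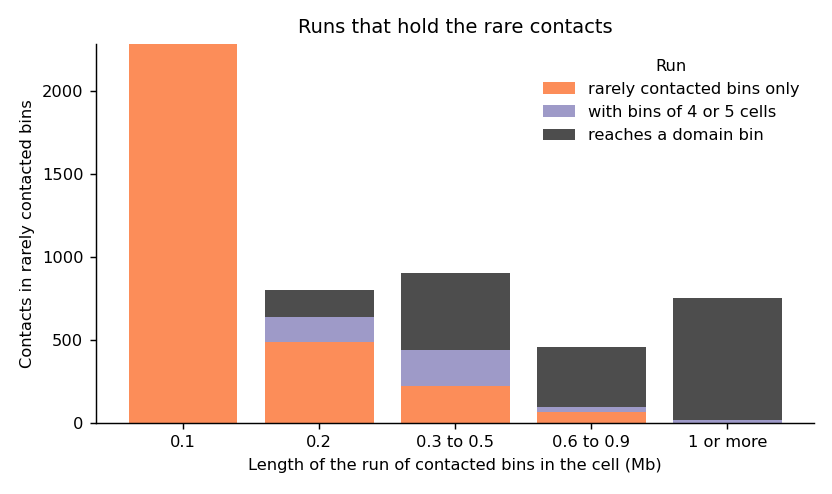
Number of contacts in rarely contacted bins by the length of the run of adjacent contacted bins in that cell (Mb), split by what else the run held. Of 5196 contacts, 2284 were runs of 1 bin, and of the 754 in runs of 1 Mb or more, 739 lay in runs that reached a domain bin.

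Runs of rarely contacted bins only were short, but 18 of them held at least 5 adjacent bins. The longest, of 0.9 Mb on chromosome 15 (49400001 to 50300000), was found in cell 23, where all 9 bins had an OE of 1.07 to 3.33, a mean of 1.95 and 77 reads in all. In the other 28 cells the same bins had a mean OE of 0.0607, 9 of those cells had no read there, and cell 34 had a contact in 1 bin. That the other cells were low there follows from the choice of the bins.

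The chromosome given as 9:22 joins chromosomes 9 and 22 in this line. Its positions are printed as deposited for the joined chromosome and were not converted to hg19 positions of chromosome 9 or 22. On it, cell 9 had a run of 0.800 Mb (143600001 to 144400000) with a mean OE of 1.74. There another cell had a higher mean OE, 2.99, and 4 other cells had a contact. Cell 19 had a run of 0.700 Mb on chromosome 20 (58900001 to 59600000) with a mean OE of 2.34 and 106 reads, against a mean of 0.133 in the other cells, of which 4 had a contact there and 1 had a mean OE of 1.00. This run lay 4.30 to 4.90 Mb from the nearest domain bin. Cell 24 had 1 of the same length on chromosome 17 (10700001 to 11400000), with a mean OE of 1.64 and 142 reads, at 10.2 to 10.8 Mb from a domain bin, and 3 other cells had a contact there. Of 6 runs of 0.6 Mb, that with the highest mean OE (3.40) was in cell 5 on 9:22 (20600001 to 21200000), where no other cell had a contact and 11 had no read.

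Pooled over cells, adjacent rarely contacted bins formed 1876 stretches, of which 1208 (64.4%) were 1 bin, 62 held at least 5 bins and 2 at least 10. The longest 2 were both on 9:22. That at 143600001 to 144700000 (1.1 Mb) was held by 6 cells with 26 contacts, of which cell 28 had 11 and cell 9 had 9. The stretch at 20400001 to 21400000 (1.00 Mb) was held by 6 cells with 12 contacts, of which cell 5 had 6. The next 3 lay on chromosome 15 (49400001 to 50300000), chromosome 1 (183600001 to 184400000) and chromosome 2 (58800001 to 59600000), and a stretch on chromosome 6 (20900001 to 21700000) was as long as the last 2. In 4 of the first 5 stretches 1 cell had a contact in at least 6 bins, and the exception was that on chromosome 1, where the cell with most had 5.

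Signal below the limit also extended beyond the contacts. For the 1830 contacts farther than 0.5 Mb from a domain bin, the never-contacted bins around them were compared between the cell with the contact and the other 28 cells. These bins stayed under an OE of 1 in every cell. At 0.1 Mb from the contact, their mean OE was 0.202 ± 0.0957 (SD, n = 29 cells) in the cell with the contact and 0.0573 ± 0.00908 in the others. Each value for the others is a mean of 28 cells, and these means share cells. Their SD is therefore not a spread of single cells. The mean OE was higher in the cell with the contact in 27 of 29 cells, and in 29 of 29 when each OE was divided by that cell's mean over all never-contacted bins. At 0.5 Mb the means were 0.105 and 0.0442 (higher in 24 of 29 cells), and at 1 Mb they were 0.0704 and 0.0363 (higher in 22). The flanking bins were chosen on the values of the same cells, so no test is given.

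**Figure D3:**
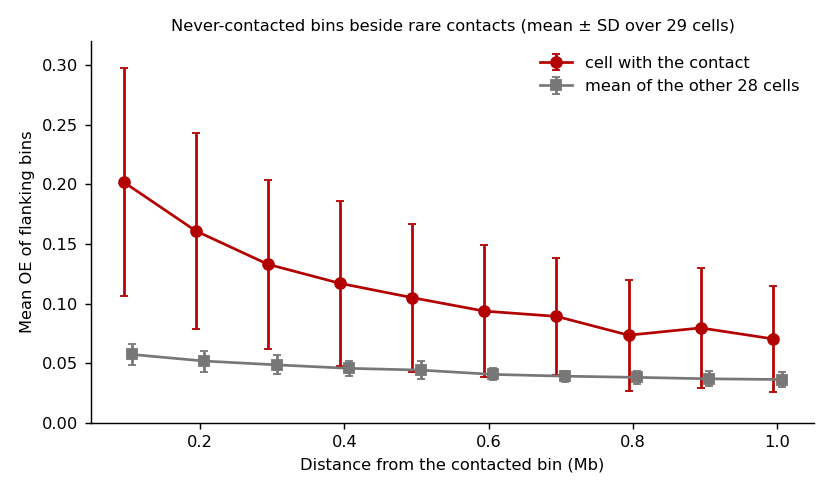
Mean OE of never-contacted bins (vertical axis) by distance in Mb from a contact in a rarely contacted bin farther than 0.5 Mb from a domain bin, in the cell with that contact (circles) and as the mean of the other 28 cells (squares). Points and bars are the mean and SD over 29 cells. The bars of the squares are SDs of means over 28 cells and do not show the spread of single cells. The mean of the cell with the contact lies above that of the others at each distance, from 0.202 against 0.0573 at 0.1 Mb to 0.0704 against 0.0363 at 1 Mb.

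The contacts in rarely contacted bins were weaker than those in domain bins. Their median OE was 1.38 (quartiles 1.14 and 1.84), 969 of the 5196 (18.6%) had an OE under 1.1, and 1051 (20.2%) reached 2. Per cell, the median ran from 1.26 to 1.63 with a middle value of 1.38, whereas in contacts of domain bins it ran from 2.24 to 3.14 with a middle value of 2.67. The ranges over cells did not overlap. The bins were selected on OE, so this gap is a description. By number of cells the median OE was 1.33, 1.38 and 1.43 for bins of 1, 2 and 3 cells. In bins of 4 or 5 cells, just outside, it was only slightly higher than in bins of 3 cells. It was also well below that in domain bins. Weak contacts were therefore not particular to the rarely contacted bins. By distance, the median OE of the contacts in rarely contacted bins showed no steady trend. It was 1.39 directly beside a domain bin, 1.37 in each class from 0.1 to 2 Mb, 1.40 at 2 to 5 Mb and 1.32 farther than 5 Mb.

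The reads behind a contact limited how firmly it could be called. A contact rested on a median of 9 reads (quartiles 5 and 13) and at most 47. The exact 95% Poisson interval of the reads lay wholly above the expectation in 910 contacts (17.5%), against 66.4% of the contacts in domain bins. In 781 of the 3106 bins (25.1%), at least 1 contact met this. PCR copies molecules, so reads are not independent, and these intervals cover counting error only. A single read made 244 contacts (4.70%), of which 241 were in bins of low weight, and 144 bins (4.64%) had no contact with more than 1 read. In bins of higher weight, 3 contacts rested on 1 read and the highest OE was 8.01, whereas in the others it reached 144.

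Cells without a contact still had some signal in these bins. Their mean OE there was 0.131, against 0.0360 in never-contacted bins and 0.214 in bins of 4 or 5 cells, and 66.3% of these values were 0, against 87.1% and 52.6%. Over bins of 1, 2 and 3 cells, this mean was 0.103, 0.151 and 0.183.

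The cells held very unequal numbers of these contacts. A cell had between 51 and 442 of them, with a median of 166 and a mean of 179 ± 93.0 (SD, n = 29), although the contact share of a cell over all autosomal bins lay between 21.1% and 34.8% and was 27.9% over all cells. Cell 19 had most, with 442 contacts, 170 of them in bins that no other cell touched. Cell 28 followed with 347 and cell 26 with 275, and these 3 cells held 20.5% of all. The fewest were found in cell 11 (51), cell 18 (56) and cells 27 and 29 (70 each). In cell 19 these contacts made up 6.82% of all its contacts, against 0.940% in cell 11 and 0.909% in cell 29. Cell 19 had 126724 reads, the median, and cell 29 had 196860.

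**Figure D4:**
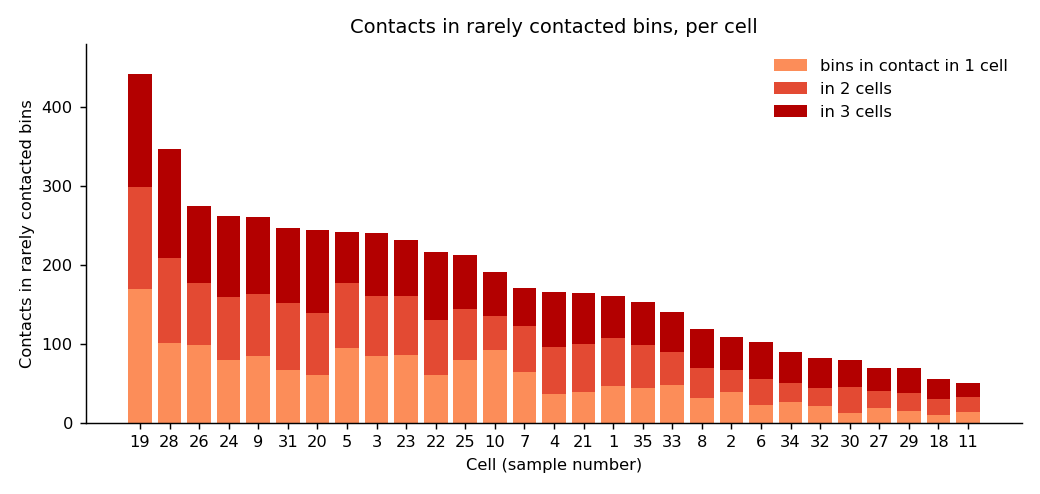
Number of contacts in rarely contacted bins in each of the 29 cells, ordered by total and split by whether the bin was in contact in 1, 2 or 3 cells. Totals run from 442 in cell 19 to 51 in cell 11, and every cell holds bins of all 3 kinds.

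Across the 29 cells, which differ in library and depth, the number of these contacts had a Pearson's r of 0.331 (Spearman's rho 0.414) with log10 reads and 0.393 (rho 0.550) with the contact share. With the mean OE of the cell in never-contacted bins, r was 0.811 (rho 0.846), and leaving out the 2 cells with the most extreme such mean gave 0.816. That mean ran from 0.00564 to 0.0717 over the cells. Both quantities come from the same reads of the same cells, so the correlations are descriptions. Whether reads spread over the whole genome of a cell take part in its rare contacts was not tested. Where 2 cells shared a bin, the pairs were many: the 822 bins of 2 cells fell on 298 of the 406 possible pairs, and the pair with most, cells 19 and 28, shared 15.

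Cells varied in the share of their rare contacts that lay on 1 chromosome. The chromosome with most held 10.0 to 42.2% of the contacts of a cell, with a median of 15.9%, whereas over all cells together chromosome 1 held most with 9.18%. The chromosome was picked anew in each cell, often from few contacts that came in runs, which raises its share. This gap by itself therefore does not show that contacts gather on a chromosome. In cell 27 no chromosome held more than 7 of 70 and in cell 21 none more than 17 of 164 (10.4%). The pairs that follow are the extremes. Cell 26 held 77 of the 361 such contacts on chromosome 10 (21.3%), where the median over cells was 8, and these made up 28.0% of its own. Cell 19 held 51 of 128 on chromosome 20 (39.8%), where the median was 2, and also 51 of 237 on chromosome 11. Cell 24 held 39 of 195 on chromosome 16 and cell 5 held 48 of 256 on chromosome 12. Among cells with few such contacts, cell 34 had 38 of its 90 on chromosome 7.

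Other signal on the same chromosome was also high in these cells. On chromosome 20, domain bins were in contact in 77.2% of cases in cell 19, against a median of 57.7% over cells, and the mean OE of never-contacted bins was 0.114 against a median of 0.0203. On chromosome 10, the values in cell 26 were 81.6% against 65.7% and 0.108 against 0.0352. Over all autosomes, the mean OE of never-contacted bins was also high in cells 19 and 26. It was 0.0660 and 0.0689 there, against a median of 0.0354 over cells. Of the 18 chromosomes with at least 100 of these contacts, the cell that held most also had the highest OE in never-contacted bins on 10, and was among the 5 highest on 14. It was among the 5 highest in domain contacts on 12. What these counts would be for cells that are high over all chromosomes was not computed. The pairs of cell and chromosome were picked with their values in view, and the part of this signal in the rare contacts was not tested.

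**Figure D5:**
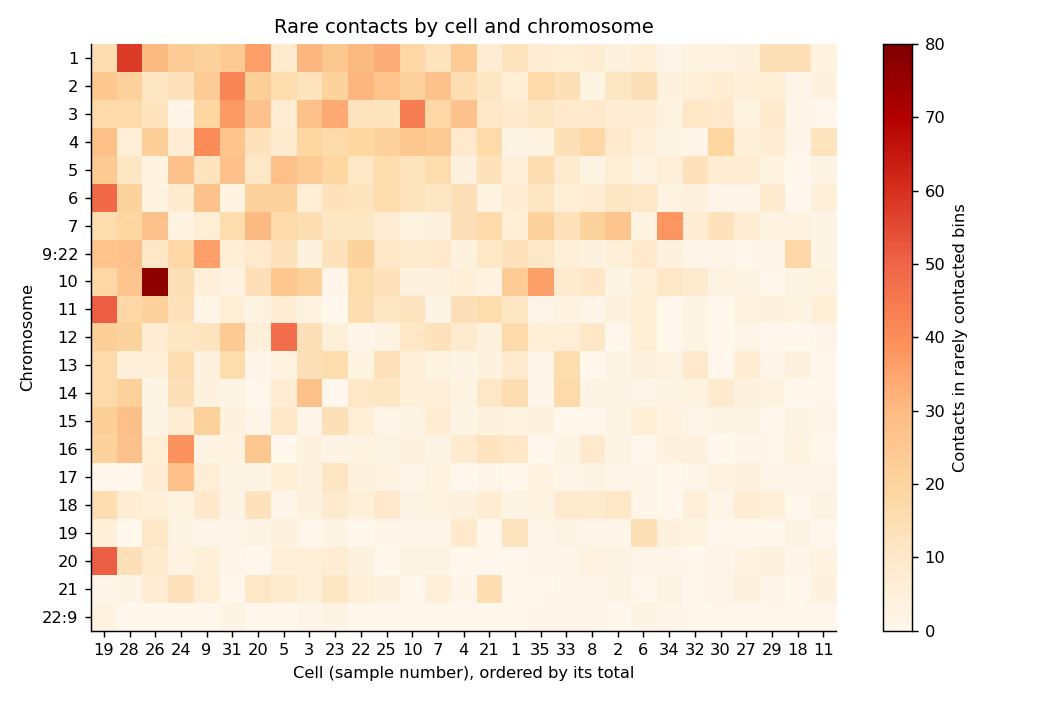
Number of contacts in rarely contacted bins for each chromosome (rows) and cell (columns, ordered by total from most to fewest); colour gives the number on a scale from 0 to 80. The darkest field is chromosome 10 in cell 26 with 77, and cell 19 has 51 each on chromosomes 11 and 20.

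Chromosomes also differed in how many of their bins were rarely contacted. The share was highest on chromosome 15 (18.7% of 520 bins, measured without the part that holds no values), chromosome 10 (17.4% of 1307) and chromosome 21 (15.7% of 356). It was lowest on 22:9 (6.76% of 148), chromosome 19 (7.86% of 560) and chromosome 17 (7.96% of 779), which all consist mostly of never-contacted bins (79.5 to 92.6%). Counted over the bins that were not domain bins, chromosome 4 had the highest share, 32.8%, and 61.2% of its bins were domain bins. On the long arm of chromosome 3 beyond 162 Mb, the never-contacted bins had a median of 1.91 times the OE of such bins elsewhere, above 1 in 26 of 29 cells. There 41 of 359 bins (11.4%) were rarely contacted.

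A smaller set of 508 bins (16.4%) lay farther than 2 Mb from any domain bin, or on 22:9, which has none. Of these, 345 (67.9%) were in contact in 1 cell, against 53.1% of all rarely contacted bins. They were spread over 124 windows of 5 Mb, and the 6 windows with most held 106 of them (20.9%). Chromosome 17 held 24 of them in 10000001 to 15000000, where 16 of 37 contacts were in cell 24. Chromosome 10 held 22 in 30000001 to 35000000, with 21 of 27 contacts in cell 26, and 19 in 125000001 to 130000000, with 15 of 28 contacts in cell 35 and 8 in cell 1. Chromosome 10 also held 16 in 120000001 to 125000000, where cell 28 had 10 of 24. In the other 2 windows the contacts were divided more evenly. On chromosome 16 (25000001 to 30000000), with 13 such bins, cells 28, 20 and 21 held 8, 6 and 6 of 23 contacts, and on chromosome 13 (25000001 to 30000000), with 12, cell 23 held 5 of 18 contacts spread over 9 cells.

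By cell, contacts at this distance numbered 80 in cell 19, 72 in cell 26 and 58 in cell 28, with a median of 21. As a share of the cell's own rare contacts they ran from 4.26% in cell 33 to 26.2% in cell 26.

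The 5 bins farthest from a domain bin all lay near the start of chromosome 1, at 43.4 to 46.0 Mb. The first 2 (2600001 to 2700000 and 3900001 to 4000000) had weights of 24 and 22, and each of their contacts was 1 read, with OE values of 1.53 in cell 28 and of 2.09, 3.76 and 6.56 in cells 30, 18 and 10. No other cell had a read there. With reads in so few cells, these read numbers and weights may have come out too low. The other 3 were adjacent (5000001 to 5300000) and rested on more reads. In cell 24 all 3 were in contact, with OE values of 1.37, 1.29 and 1.62 from 20, 12 and 19 reads, and cell 23 had 2 of them at 1.23 and 2.42. Cells 28 and 29 held the remaining contacts.

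Among contacts of at least 5 reads, the highest OE was 8.01, from 7 reads in cell 2 on chromosome 11 (62800001 to 62900000), 4.60 Mb from a domain bin, where the other cells had a mean OE of 0.0670. The next was 7.68 in cell 5 on chromosome 12 (127900001 to 128000000), within a run of 31 contacted bins. Values of 6.52 in cell 35 on chromosome 10 (129400001 to 129500000), 6.44 in cell 18 on 9:22 (89100001 to 89200000) and 6.34 in cell 19 on chromosome 14 (97800001 to 97900000) followed, in runs of 6, 8 and 11 bins. Thus 4 of these 5 lay inside longer runs of the same cell.

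Cells 13, 15 and 17, which had not chosen the bins, gave a separate measurement. In cell 13, 21 reads fell in the 3106 rarely contacted bins and 15 in the 10838 never-contacted bins, with a mean OE of 0.157 against 0.0336. In cell 15 it was 19 reads against 6, with 0.115 against 0.00934. In cell 17 it was 40 against 19, with 0.167 against 0.0226. The OE was higher in the rarely contacted bins in 3 of 3 cells, with a mean log2 ratio of 2.91 ± 0.700 (SD, n = 3). An exact two-sided sign-flip permutation test gave p = 0.25, which is the smallest that 3 cells allow, so the design cannot reach the usual threshold. In domain bins the mean OE of these cells was 2.05 to 2.14, and in bins of 4 or 5 cells it was 0.177 to 0.372.

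Split by distance to a domain bin, the reads were few. Up to 0.5 Mb from a domain bin, the rarely contacted bins of cells 13, 15 and 17 had 17, 13 and 31 reads over 1860 bins, and the never-contacted ones 4, 2 and 6 over 1998 bins. Within this range, the rarely contacted bins lay closer to domains, so it is not matched in distance. At 0.5 to 2 Mb, the gap was smallest in cell 13, with 2 reads over 738 rarely contacted bins against 6 over 3662 never-contacted ones and an OE ratio of 1.37. In cells 15 and 17 the reads there were 1 against 2 and 7 against 9, with ratios of 2.76 and 4.16. Farther than 2 Mb, they had 2, 5 and 2 reads over 508 bins, against 5, 2 and 4 over 5178 bins.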

How the data were processed

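The deposited table gives a ratio per 100-kb bin and cell, observed over expected reads (OE) per the file's name. Per the submitters' processing notes, cutadapt, Bowtie2 2.1.0 and hg19 were used. The expectation, read filters and duplicate removal were not given in the sources used here. Of 35 labelled samples, 32 matched a column by the number in the title. The other 3 were not analysed here.

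OE values were whole multiples of a step per cell divided by a weight per bin, within 0.0001 reads, which gave reads and relative weights. On simulated data, recovery returned every read number in 98.8% of 3939 rarely contacted bins. A read number with a factor common to all cells of a bin can come out too low.

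Distances run between bin starts on 1 chromosome, and runs end at bins without values. Regions named are the 5 longest stretches (ties in chromosome order) and the 5 longest runs (ties by mean OE). The 5 farthest bins and the 5 highest OE with at least 5 reads are also named. Also named are the cells and chromosomes at both ends of the order. Members, lists and alternatives were chosen with earlier results of these data known. The 5-Mb windows, the flanks, the weight limit and the pairs of cell and chromosome were picked with their values in view. The gene tables at hand are of another build, so no gene is named. Python 3.11.15, numpy 2.4.6 and scipy 1.17.1 were used.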

Additional observations from a re-analysis of the deposited data

How the results depend on the processing

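Of 68 values recomputed under other settings, 42 stayed the same and 26 moved further. Same meant within 1.5 times for the number of bins and within 1 SD over cells for shares, run length and OE. For the share of the top 3 cells it instead meant within the 95% Wilson interval, and for cells 13, 15 and 17 the same direction. The Wilson interval takes contacts as independent, which contacts of 1 run are not, so it is not a spread over cells. None reversed, but only the direction in cells 13, 15 and 17 could do so. The number of rarely contacted bins moved from 3106 to 5274 with any read counted and to 1650 with bins of 1 cell only. The share within 1 Mb of a domain bin moved from 74.0% to 86.6% with domains from 10% of cells (over bins of 1 or 2 cells) and 47.6% with 50%. The share of contacts in a run reaching a domain bin (33.3%) was 26.2% with an OE limit of 0.5, 16.9% with any read, 16.9% with domains from 50%, 20.1% with bins of 1 cell, 22.2% after thinning and 47.4% with joined runs. Thinning also chose the bins anew (4269). The mean run (0.520 Mb) was 0.280 Mb with any read, 0.290 Mb after thinning and 0.978 Mb with joined runs. The median OE (1.38) was 0.716, 2.62 and 0.20 with limits of 0.5, 2 and any read, which the limits set. Contacts on 1 read (4.70%) were 8.10% with a limit of 0.5, 66.2% with any read, 8.85% after thinning, and 0 when 2 reads were required or bins with a weight under 236 were left out. The share of the top 3 cells (20.5%) was 22.3%, 19.1% and 26.2% with limits of 0.5, 2 and any read, 22.4% with bins of 1 cell and 19.3% after thinning. Leaving out each cell in turn moved 1 of 232 values, that share without cell 19, and it ranged from 18.5 to 21.3%. The log2 ratio in cells 13, 15 and 17 could not be computed with any read counted. Where no cause is stated, the cause was not tested.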

Other observations

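Chromosome X lay outside the rule. Of its 1487 bins, 193 (13.0%) were in contact in 1 to 3 of the 29 cells and 24.8% in none.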
